A study of Mus musculus with 8 samples.

Results

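Replication initiation sites (ISs) next to the centromere were taken from both merged IS tables of CH12 cells, which derive from a B cell lymphoma of the mouse. A site belonged to the set when it lay on an autosome other than 10, 15 or 16 and its midpoint lay below 8 Mb in mm9, which left 16 chromosomes. The rule used position only and no measured value. It took 4462 of 169053 ISs (2.64%), of which 998 of 39116 (2.55%) were in the table of Rif1KO against WT and 3464 of 129937 (2.67%) in the table of Rif1KO_shMcm6 against Rif1KO_shLacZ. On each of the 16 chromosomes the assembly had its first base at 3 Mb, so a window was 5 Mb long and the windows together held 79.3 Mb of sequence and the transcription start sites (TSSs) of 821 protein-coding genes.

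Short nascent strand sequencing (SNS-seq) reads the short leading strands that carry an RNA primer, so the read density of an IS is taken to reflect how often replication started there. Peaks were called without input and densities were not divided by one. Differences between ISs in copy number were therefore not corrected. The 8 libraries were 2 each of WT cells, Rif1-/- cells (Rif1KO), and Rif1-/- cells with a lentiviral short hairpin to the bacterial gene LacZ (Rif1KO_shLacZ) or to mouse Mcm6 (Rif1KO_shMcm6). All were CH12 clone F3 cultures stimulated with IL4, CD40 and TGF beta, and the infected cells had passed puromycin selection, which WT and Rif1KO cells had not. Which Rif1-/- clone was sequenced is not given in the sources used here. The tables give 1 value per condition with both libraries pooled, so no value below has a replicate error and no test between conditions was possible. In its place the counting error is given, as the standard error (SE) from the pooled reads of an IS or as a 95% Wilson interval of a share, and it covers counting only, since PCR copies are not independent molecules.

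Mouse chromosomes carry the centromere at their low-coordinate end. Beside it lies pericentromeric heterochromatin, long arrays of the major satellite repeat, most of which the assembly leaves out, and beyond it the chromosome arm begins with genes and unique sequence. RIF1 is a chromatin protein that recruits protein phosphatase 1 and is best known for holding back replication origins in late-replicating chromatin. MCM6 is a subunit of the MCM helicase, which licenses origins and unwinds DNA when they fire, and satellite heterochromatin is known to replicate apart from the early-replicating arms.

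The sites with the highest densities stood on the first assembled sequence of chromosome 11, and an array of ISs on that of chromosome 9 stood on a tandem repeat. The mm9 sequence at the midpoint of the densest WT site (chr11:3001645-3001944, plus strand) and of the chromosome 9 site with the strongest repeat (chr9:3032299-3032598, plus strand) is shown first. In the chromosome 9 sequence the capitals mark bases that equal the base 234 positions before or after, which was possible for 66 pairs of positions in this window and held for 66. In the chromosome 11 sequence the capitals mark the longest stretch that both windows share, of 18 bases.

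chromosome 11 site: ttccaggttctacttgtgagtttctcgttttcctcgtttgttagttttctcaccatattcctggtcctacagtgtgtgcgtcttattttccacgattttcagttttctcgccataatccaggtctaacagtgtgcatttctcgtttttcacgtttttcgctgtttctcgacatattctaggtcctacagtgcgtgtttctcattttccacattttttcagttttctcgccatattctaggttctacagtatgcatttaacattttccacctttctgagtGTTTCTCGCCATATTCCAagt

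chromosome 9 array: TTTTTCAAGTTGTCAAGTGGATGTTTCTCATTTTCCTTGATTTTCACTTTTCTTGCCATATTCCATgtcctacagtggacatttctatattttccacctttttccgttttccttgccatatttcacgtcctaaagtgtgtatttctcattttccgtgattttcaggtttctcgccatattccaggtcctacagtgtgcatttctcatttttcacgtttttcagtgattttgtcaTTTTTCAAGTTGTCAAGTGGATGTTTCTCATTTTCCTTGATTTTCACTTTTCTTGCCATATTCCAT

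The repeat length of 234 bases is that of the mouse major satellite unit. The stretch GTTTCTCGCCATATTCCA was looked for on both strands in the 500 bases around each midpoint, after it had been seen in these windows. It was in 4 of the 38 Rif1KO against WT sites in the first 0.1 Mb of assembled sequence, on chromosomes 4, 9 and 11, and in 6 of all 39116 sites of that table (0.0153%). Both sites that the stretch was taken from are counted among the 4 and among the 6. In the other table it was in 2 of 94 sites of the first 0.1 Mb, both on chromosome 11, and in 3 of 129937 sites (0.00231%). Among these is the site that overlaps the chromosome 11 window shown, so the counts are no independent evidence of enrichment.

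The next sequences are examples from the sites named further on for their differences between conditions, and do not include all of the largest. Here the capitals mark a G-quadruplex motif, 4 runs of at least 3 G separated by 1 to 7 bases, or the same in C on the other strand, and all are on the plus strand of mm9. The windows are chr19:7240165-7240464 in Macrod1, chr19:4214745-4215044 at the Clcf1 promoter and chr2:7917788-7918087 far from genes for Rif1KO against WT, and chr8:3445349-3445648 for Rif1KO_shMcm6 against Rif1KO_shLacZ.

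Macrod1 site, lower in Rif1KO: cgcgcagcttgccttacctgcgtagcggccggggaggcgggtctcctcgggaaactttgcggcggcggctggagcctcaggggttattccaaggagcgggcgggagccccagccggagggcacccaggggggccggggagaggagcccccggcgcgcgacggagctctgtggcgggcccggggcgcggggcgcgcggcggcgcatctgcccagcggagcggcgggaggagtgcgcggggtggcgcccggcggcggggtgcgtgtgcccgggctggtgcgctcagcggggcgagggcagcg

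Clcf1 site, lower in Rif1KO: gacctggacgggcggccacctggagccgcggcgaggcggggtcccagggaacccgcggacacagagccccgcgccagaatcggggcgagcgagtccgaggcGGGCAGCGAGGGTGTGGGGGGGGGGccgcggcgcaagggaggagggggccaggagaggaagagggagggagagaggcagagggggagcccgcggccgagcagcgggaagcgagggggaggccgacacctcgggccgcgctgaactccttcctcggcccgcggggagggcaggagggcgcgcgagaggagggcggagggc

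chromosome 2 site, higher in Rif1KO: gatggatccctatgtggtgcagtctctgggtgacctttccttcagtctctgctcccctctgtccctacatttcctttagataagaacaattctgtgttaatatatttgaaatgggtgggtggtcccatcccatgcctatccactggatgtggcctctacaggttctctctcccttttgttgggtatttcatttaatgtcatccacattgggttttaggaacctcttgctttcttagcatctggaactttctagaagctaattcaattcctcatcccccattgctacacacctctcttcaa

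chromosome 8 site, lower in Rif1KO_shMcm6: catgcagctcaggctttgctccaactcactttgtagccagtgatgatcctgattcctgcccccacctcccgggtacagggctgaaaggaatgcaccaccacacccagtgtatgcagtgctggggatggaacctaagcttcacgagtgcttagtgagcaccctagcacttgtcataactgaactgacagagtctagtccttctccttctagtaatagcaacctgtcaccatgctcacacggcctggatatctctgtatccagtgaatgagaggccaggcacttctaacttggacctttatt

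The G+C content of these windows differed widely. It was 79.3% in the Macrod1 window and 77.7% in the Clcf1 window, and 44.3% in the chromosome 2 window. The chromosome 8 window had 51%. The Macrod1, chromosome 2 and chromosome 8 windows held no motif, while the window of the Ccm2 site named further on, not printed here, had 80.3% G+C and 3 motifs.

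The windows next to centromeres held fewer ISs per Mb of sequence than the arms they belong to, and this was so in both tables. Windows held 0.82 times the ISs per Mb of the rest of the same chromosomes for Rif1KO against WT (95% interval 0.77 to 0.88 from the count of ISs) and 0.83 times for Rif1KO_shMcm6 against Rif1KO_shLacZ (0.80 to 0.85). Fewer per Mb in the window were found on 11 of 16 chromosomes in the first table, and on 13 of 16 in the second. The sequence of the windows was also less unique, since 80.1% of their 50-base stretches occurred once in the genome, against 85.5 to 93.1% further along each chromosome. Reads were kept only where they aligned uniquely. The gap was widest on chromosome 14 (7.74 against 88.3%), and the windows of chromosomes 2 and 12 were more unique than their arms. Per Mb of unique sequence the ratio was 0.92 in both tables, and it was below 1 on 9 and 11 of the 16 chromosomes. How much of the difference uniqueness sets was not tested.

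Single chromosomes departed far from these ratios. The window of chromosome 3 was the most populated, with 133 ISs in the first table and 353 in the second, which is 1.66 and 1.23 times the ISs per Mb of the rest of that chromosome. It held the TSSs of 8 genes, the fewest of all windows, and none of its 133 ISs of the first table was near a promoter. Chromosome 11 had 124 and 303 ISs and chromosome 19 had 108 and 251, in windows with 84 and 179 genes. Chromosome 7 had 72 and 291 in a window with 127 genes, 66.1% of whose stretches were unique.

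The emptiest windows were those of chromosomes 14, 8 and 4. Chromosome 14 had 0 ISs in the first table and 31 in the second, in a window whose 1 Mb bins were between 2.92 and 12.1% unique. Counted per Mb of unique sequence, the 31 ISs were 1.07 times as dense as the rest of chromosome 14. Of the 102 protein-coding genes there, 98 carry Gm names, given to predicted gene models.

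The window of chromosome 8 was unlike that of chromosome 14, since between 80.7 and 89.2% of its bins was unique. It had 3 ISs in the first table and 54 in the second, at 0.05 and 0.23 times the ISs per Mb of the rest of the chromosome. All 3 lay in Arhgef18, which encodes an exchange factor for small GTPases, between chr8:3421999 and chr8:3445680. The low count went on past the window. For Rif1KO against WT the next stretches of 5 Mb, from 8 to 13 and from 13 to 18 Mb, had 20 and 4 ISs, and for Rif1KO_shMcm6 against Rif1KO_shLacZ they had 96 and 57. The median Rif1KO_shLacZ density of the 54 sites was 2.17 log2 RPM (reads per 1000000 reads in the ISs of the table), against 2.75 for the ISs outside the windows on the 16 chromosomes. Chromosome 4 had 27 ISs in the first table, 0.38 times the rest of the chromosome per Mb, and 195 in the second, 0.77 times.

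**Figure D1:**
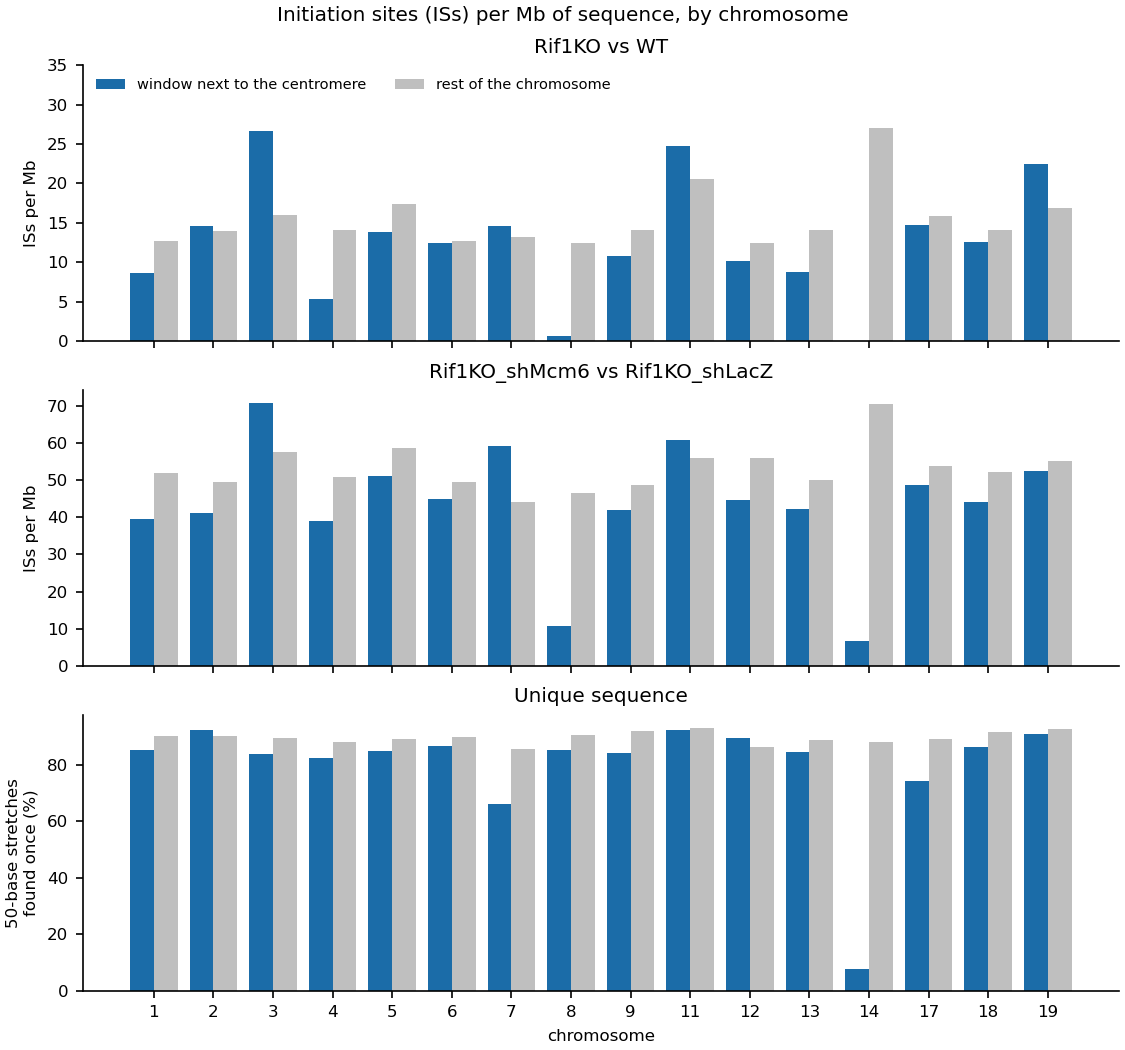
ISs per Mb of sequence on each of the 16 chromosomes, in the window next to the centromere (blue) and in the rest of the chromosome (grey), for both tables, with the share of 50-base stretches that occur once in the genome in the lowest panel. The window of chromosome 14 is the 1 with little unique sequence (7.74%), while that of chromosome 8 is 85.4% unique and has 0.60 and 10.8 ISs per Mb.

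Within the first 9 Mb, the ISs of the first table were densest near the first assembled base. Over the 16 chromosomes together there were 14.4 ISs per Mb in the first Mb of sequence and 10.2 in the fifth, and between 10.1 and 11.5 in the 4 Mb beyond the windows, all below the 15.3 per Mb of the rest of these chromosomes as a whole. In the table of Rif1KO_shMcm6 against Rif1KO_shLacZ the values lay between 41.3 and 45.3 per Mb inside the windows and between 42.6 and 47.1 beyond. All were below the 52.9 per Mb of the rest of these chromosomes as a whole. The last Mb inside the limit and the first outside it held 162 and 182 ISs with a median log2 fold change of 0.05 and 0.08 for Rif1KO against WT, and 655 and 696 with -0.01 and -0.03 for Rif1KO_shMcm6 against Rif1KO_shLacZ. The IS nearest the first assembled base began 150 bases before that base on chromosome 9 and up to 421998 bases after it, on chromosome 8, in the first table. In the second table the nearest began between 51 and 196685 bases after it, and within 0.1 Mb on 15 of 16 chromosomes.

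ISs next to centromeres were more often at promoters over the 16 chromosomes together, which rested on a few of them. Of the Rif1KO against WT sites, 9.92% (8.22 to 11.9%) lay within 1 kb of a protein-coding TSS, against 6.57% of the other ISs of these chromosomes and 6.36% of all. For Rif1KO_shMcm6 against Rif1KO_shLacZ the share was 5.95% (5.21 to 6.78%) against 4.48% and 4.42%. The windows held 10.4 genes per Mb, against 9.08 in the rest. This rested on chromosomes 14 and 19, since without chromosome 14 the values were 9.64 and 9.19 and without both they were 7.74 and 9.16. The excess was in the 4 Mb nearest the centromere, with shares between 9.01 and 13.5% and between 5.07 and 9.47%, and the fifth Mb had 4.94 and 2.75%. Without chromosome 19, whose window has the most genes, the share in the first table was 7.87% (6.27 to 9.82%) against 6.55% in the rest, and in the second 5.10% (4.40 to 5.92%) against 4.45%. Without the array of predicted genes on chromosome 9 as well, left out after its values were seen, the shares were 6.84% (5.35 to 8.71%) and 4.93% (4.23 to 5.73%), and both intervals held the value of the rest.

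The promoter sites belonged to 86 genes (10.5% of those in the windows) in the first table, against 10.1% of the genes elsewhere on these chromosomes. In the second table they belonged to 161 genes (19.6%, against 21.6%). The genes with most promoter ISs are named on the 3 chromosomes with most and the 3 with fewest sites of each table. On chromosome 19, Nrxn2, which encodes a presynaptic adhesion protein, Sf1, a splicing factor that binds the branch point, and Zfpl1, a Golgi zinc finger protein, had 2 promoter ISs each for Rif1KO against WT. On chromosome 11 the gene with most was Aebp1, a secreted collagen-binding protein, with 2, and on chromosome 4 it was Plag1, a zinc finger transcription factor, with 2. For Rif1KO_shMcm6 against Rif1KO_shLacZ, Aebp1 and Ap1b1, a subunit of a clathrin adaptor, had 3 each on chromosome 11, Shisa7 and Tnni3 3 each on chromosome 7, and 1700008P02Rik 2 on chromosome 3. In the second table chromosome 8 had 1 each at Evi5l, Stxbp2, Xab2 and Zfp358, chromosome 14 had 1 each at 2610042L04Rik, Gm2897 and Gm3667, and chromosome 4 had 1 each at Impad1 and Rps20.

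Among the genes of the windows, 20 have Zfp names, 16 of them on chromosome 7, and 5 had a promoter IS in the first table and 11 in the second. The 15 Vmn1r and 9 Vmn2r genes, which encode pheromone receptors, had 0 in both tables. The 8 Olfr genes, which encode odorant receptors, had 0 and 3. Of all genes in the windows, 10.5% had a promoter IS in the first table and 19.6% in the second. On chromosome 7, whose window was 66.1% unique, lay 12 of the Vmn1r genes and all of the Vmn2r and Olfr genes. What uniqueness adds to these counts was not tested.

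**Figure D2:**
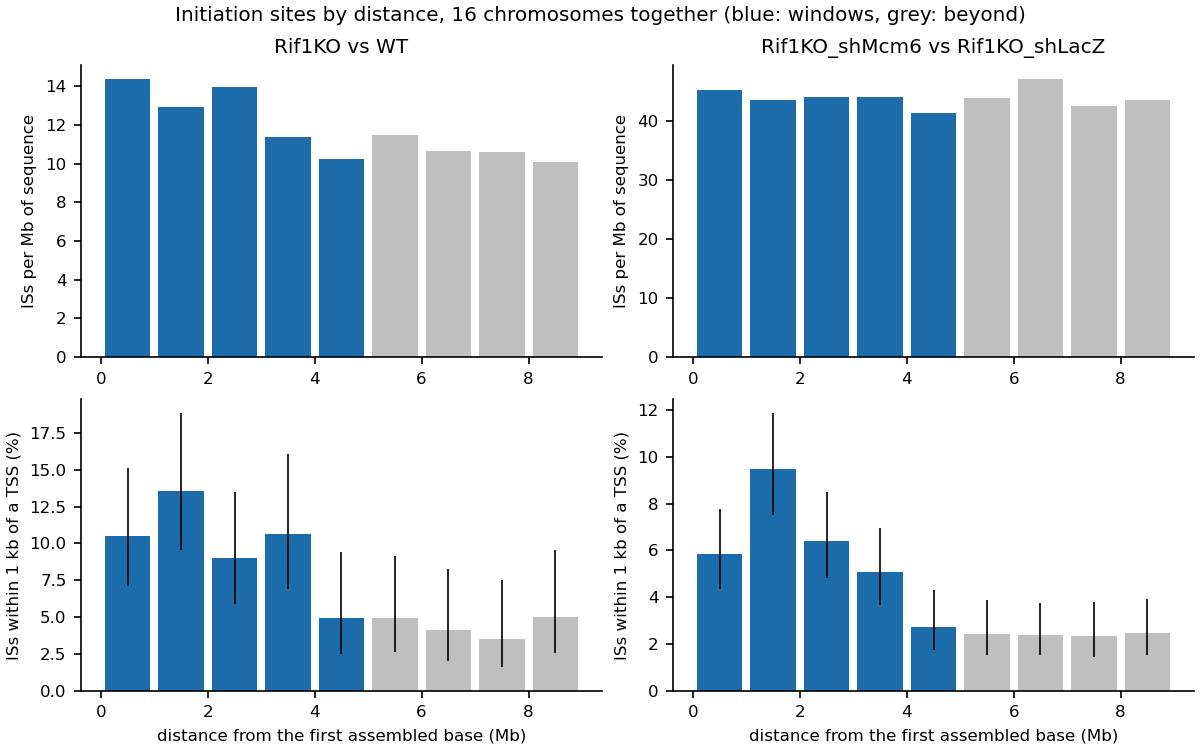
ISs per Mb of sequence and the share of ISs within 1 kb of a protein-coding TSS, by distance from the first assembled base in bins of 1 Mb, over the 16 chromosomes together (blue, windows; grey, beyond; lines, 95% Wilson intervals). The share of promoter ISs is 10.5% in the first bin and 4.94% in the fifth for Rif1KO against WT, and 5.83 and 2.75% for Rif1KO_shMcm6 against Rif1KO_shLacZ.

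The sites were somewhat poorer in G+C than others, and in the first table fewer held a G-quadruplex motif. The median G+C content was 45.9% next to centromeres and 47.3% in the rest for Rif1KO against WT, and 43.9 and 44.6% for Rif1KO_shMcm6 against Rif1KO_shLacZ. A G-quadruplex motif lay in 70.5% (67.6 to 73.3%) and 75.4% (74.9 to 75.9%) of the 500-base windows of the first table and in 50.1 and 50.5% of those of the second. The CENP-B box, which the centromere protein CENP-B binds in the minor satellite, was matched in 1 of 998 and 2 of 3464 windows, and in 0.0256 and 0.0169% of the windows of all ISs, on either strand.

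In WT cells the densities of the sites were close to those of other ISs in the middle of the distribution and above them at the top. The median was 4.48 log2 RPM (quartiles 4.11 and 4.91) and 4.45 for the other ISs of these chromosomes, with values from 2.96 to 8.55. In Rif1KO_shLacZ cells the medians were 2.73 and 2.75, on a scale set separately for the second table, with values from -0.08 to 6.37. Of the sites next to centromeres, 30 (3.01%, 2.11 to 4.26%) were among the densest 1% of their table in WT cells, against 0.90% of the rest and 1.52% of the ISs in the last 5 Mb of the same chromosomes. In Rif1KO_shLacZ cells the number was 53 (1.53%, 1.17 to 2.0%), against 0.94 and 1.56%.

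The dense sites were concentrated at the edge of the assembly. In the first 0.1 Mb of sequence there were 38 sites in the first table, and 18 of them (47.4%, 32.5 to 62.7%) were among the densest 1%. Beyond 0.2 Mb the share was 0.95%. The second table had 20 of 94 (21.3%) among the densest 1%, and 0.94% beyond 0.2 Mb. These edge sequences were less unique than others, with a median of 84.5% of stretches found once in the first table and 73.1% in the second, against 100 and 96.2% over all sites of the windows. The measure sees copies within the assembly only, and what copies outside it, of satellite or of other sequence, add to these densities was not tested.

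**Figure D3:**
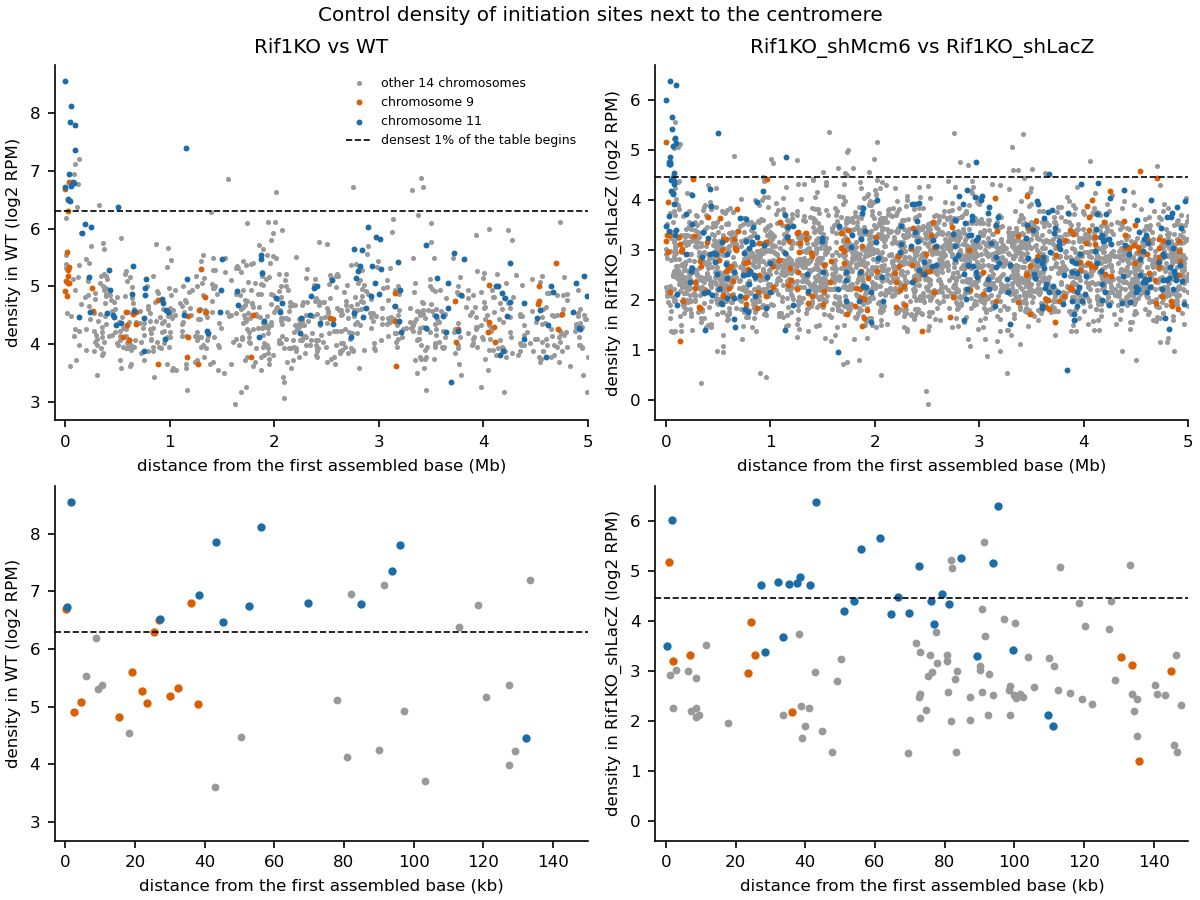
Density in WT (left) and Rif1KO_shLacZ cells (right), in log2 RPM, of each site next to a centromere against the distance of its midpoint from the first assembled base, over 5 Mb (top) and 150 kb (bottom), with chromosomes 9 and 11 coloured and a dashed line where the densest 1% of the table begins (6.31 and 4.46 log2 RPM). The sites of chromosome 11 within 0.1 Mb stand out, from 6.47 to 8.55 log2 RPM in WT cells.

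Chromosome 11 held 12 of the 18. All 12 sites in its first 0.1 Mb were among the densest 1% of WT ISs, and in Rif1KO_shLacZ cells 16 of 28 were. The densest of all, at chr11:3001042-3002547 between genes, had 8.55 log2 RPM in WT and 8.51 in Rif1KO cells, from 1258 and 1361 reads, and ranked number 6 of its table. The next lay in Sfi1, which encodes a centrosome protein. At chr11:3055527-3056669, in an intron, densities were 8.12 and 8.07, and at chr11:3042725-3043614, in an exon, 7.85 and 7.71. None of these differences passed 2 counting SEs.

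Of these 3 places, 2 were again among the 3 densest in the second table. The intronic Sfi1 site had 5.43 log2 RPM in Rif1KO_shLacZ cells, below the 3 given next. The site over the Sfi1 exon (chr11:3042228-3044023) had 6.37 log2 RPM in Rif1KO_shLacZ and 6.35 in Rif1KO_shMcm6 cells and ranked number 7. A site in the neighbouring Drg1 (chr11:3094582-3096347), which encodes a GTP-binding protein, had 6.30 and 6.19. The intergenic site at chr11:3001063-3002665 had 6.01 and 6.09. Between 88.9 and 100% of the stretches of these 6 sites were unique in the assembly.

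On chromosome 9 the first 40 kb held 13 sites in the first table and 7 in the second, on G+C-poor sequence (34 to 37.4% and 33.4 to 36.7%). In 10 of the 13 and 5 of the 7, bases 234 positions apart were equal at between 63.4 and 83.2% of positions, more than at any other lag between 20 and 500, and no other IS of either table had this period. Between 15.8 and 67.6% of the stretches of the 13 sites were unique, and between 0 and 38.9% of those of the 7. WT densities ranged from 4.83 to 6.81 log2 RPM with a median of 5.28, and 4 sites were among the densest 1%. The annotation places short predicted genes with Gm names in this array, so 10 of the 13 and 6 of the 7 counted as promoter ISs. Without the array 9.04% of the sites of the first table and 5.79% of the second were promoter ISs.

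Other edges were less populated. Chromosome 4 had 4 sites in its first 0.1 Mb in the first table, with 7.12 log2 RPM in WT cells at the densest, chromosome 17 had 2, with 6.95, and chromosome 18 had 3, with 6.19. Chromosome 3, which had the most sites in its window, had 3 there, all below 4.93. On chromosome 6 the nearest site lay farther in, at chr6:3132741-3134061, with 7.20 log2 RPM in WT and 7.21 in Rif1KO cells.

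In cells without RIF1 the densities of the sites next to centromeres were centred on those of WT cells, on the scale of the table. Both conditions of a table were scaled to the same total over its ISs, so a general gain or loss could not show. The median log2 fold change of Rif1KO against WT was -0.00 (quartiles -0.15 and 0.17), against 0.01 for the other ISs of the same chromosomes and 0.02 for all, and the value was below 0 at 505 of 998. Of the sites, 32 (3.21%, 2.28 to 4.49%) differed over 1.5-fold, where 4.96% of all ISs and 2.26% of the rest of these chromosomes did. The share of 4.96% includes the chromosomes that the rule leaves out. Among ISs called in both conditions 0.371% of the sites differed over 1.5-fold, against 1.72% of all ISs and 0.384% of the rest of these chromosomes. On log2(RPM + 1) 2.10% did, against 4.17 and 1.80%. Over 1.5-fold higher were 10 (1.0%, background 2.27%, and 0.944% in the rest of these chromosomes) and over 1.5-fold lower 22 (2.2%, background 2.7%, and 1.32% in the rest of these chromosomes, with an interval of 1.46 to 3.32% for the windows). Chromosome 19 held 9 of the 22 lower sites, and without that chromosome 2.58% of sites differed over 1.5-fold.

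Chromosomes differed more than the set as a whole. The median fold change in Rif1KO cells was 0.18 on chromosome 1 (13 of 43 sites below 0), 0.14 on chromosome 5, 0.12 on chromosome 13 and 0.10 on chromosome 6, and it was -0.13 on chromosome 19 and -0.08 on chromosome 11. The medians of the rest of these chromosomes, over 902 to 3158 sites each, lay between -0.03 and 0.05. Stretches as short as the windows varied more. Between 8 and 23 Mb of chromosomes 3, 4, 8 and 14, medians of 5 Mb stretches lay between -0.04 and 0.21, over 4 to 98 sites each. Within windows, the lowest 1 Mb bins with at least 10 sites were the fifth of chromosome 19 (median -0.22, 18 of 25 below 0) and the fourth of chromosome 11 (-0.21, 18 of 21). The highest were the fourth and the third of chromosome 5 (0.27 and 0.25). The median number of TSSs within 500 kb of a site was 36 on chromosome 19 and 19 on chromosome 11, and it was 3 on chromosome 1, 7 on chromosome 5, 6 on chromosome 6 and 3.5 on chromosome 13. Chromosome 3, with a median fold change of 0.08, had 1, and chromosome 7, with -0.04, had 33.

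**Figure D4:**
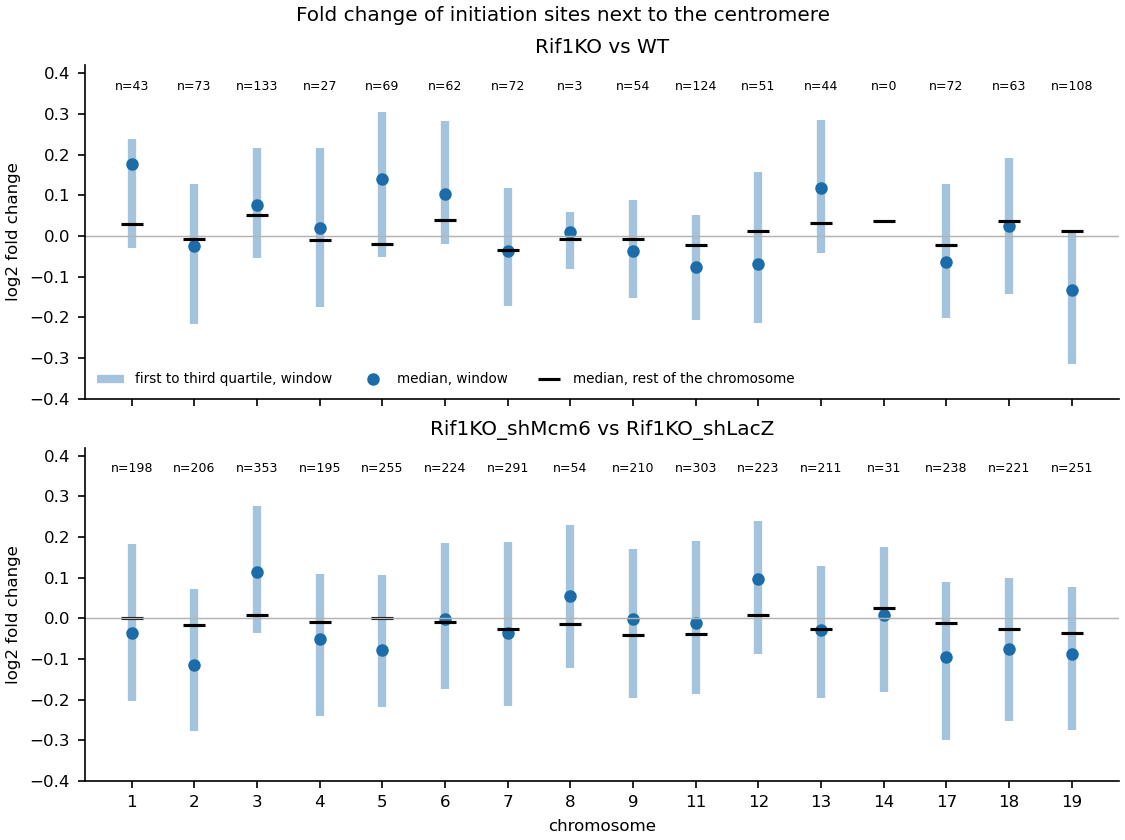
Log2 fold change of the sites next to centromeres on each chromosome for both contrasts (blue dots, medians; blue bars, from the lower to the upper quartile; black dashes, medians of the rest of the chromosome; n, number of sites). In Rif1KO against WT the median runs from -0.13 on chromosome 19 to 0.18 on chromosome 1, and in Rif1KO_shMcm6 against Rif1KO_shLacZ from -0.12 on chromosome 2 to 0.11 on chromosome 3.

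Across the 998 sites the fold change in Rif1KO cells was lower where G+C content (Spearman's rank correlation -0.35), gene number within 500 kb (-0.36) and WT density (-0.33) were higher, and across the 30416 other ISs of these chromosomes the values were -0.32, -0.27 and -0.29. Sites share libraries and neighbourhoods, and the WT density also enters the fold change, so these values describe the tables. By gene context, the median was -0.15 at the 99 promoter ISs (78 below 0), -0.08 in exons, 0.01 in introns and 0.04 between genes. Promoter ISs of the rest of these chromosomes had a median of -0.13. In Rif1KO_shMcm6 against Rif1KO_shLacZ the rank correlations across the 3464 sites were -0.12, -0.15 and -0.26.

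The largest differences are given for sites whose mean density over both conditions was at least the median of the table. Without this limit, values ran from -1.33, at the Emid1 promoter (79 and 35 reads), to 0.90. Within it the lowest fold change was -0.87 ± 0.16 (counting SE) at chr19:7239899-7240731 in the gene Macrod1, which encodes a hydrolase of ADP-ribose marks. Density there went from 5.97 log2 RPM in WT to 5.10 in Rif1KO cells (210 and 128 reads). Next was chr4:3010402-3010976, 10401 bases from the first assembled base and between genes, with 5.39 and 4.76 (-0.62 ± 0.19). The Clcf1 promoter (chr19:4214637-4215153) of a B cell stimulating cytokine had 4.94 and 4.35 (-0.59 ± 0.22). The G+C content over the whole Macrod1 and Clcf1 sites was 78.9 and 76.8%.

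The highest fold changes rested on fewer reads. At chr2:7917659-7918217, whose nearest TSS was that of Celf2, densities were 4.11 in WT and 4.94 in Rif1KO cells (0.82 ± 0.23, from 58 and 114 reads). At chr9:3548891-3549433, in an intron of Gucy1a2, which encodes a subunit of guanylate cyclase, they were 4.11 and 4.80 (0.69 ± 0.24). At chr4:7791051-7791659, whose nearest TSS was that of Car8, they were 4.21 and 4.79 (0.58 ± 0.23), which is short of the threshold of 1.5-fold. All 3 had been called in Rif1KO cells only, and in the second table the sites that overlap them had fold changes of 0.11, 0.13 and -0.14.

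The promoter ISs of the genes named above for the first table are given with their fold changes in Rif1KO cells. These genes had most on the chromosomes with most and fewest sites. Over all windows Shisa7 on chromosome 7 had most, 4 sites with fold changes from -0.42 to 0.00. The 2 sites of Sf1 had -0.89 and -0.58, from 332 WT and 235 Rif1KO reads together. At Nrxn2 they were -0.38 and -0.11, at Plag1 -0.33 and -0.14, at Aebp1 -0.13 and -0.09 and at Zfpl1 -0.32 and 0.03.

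At the edge of the assembly most sites had a fold change below 0 in Rif1KO cells. Of the 38 sites in the first 0.1 Mb, 32 were below 0 (84.2%, 69.6 to 92.6%) with a median of -0.14, and 1 differed over 1.5-fold. The chromosome 9 array supplied 13 of the 38 and the edge of chromosome 11 supplied 12. The intervals given here count each site as independent, which neighbours in such a place are not. The edge sites were also compared with ISs of like density. At or above the median WT density of the 38 (5.89 log2 RPM), 17 of 19 edge sites were below 0 with a median of -0.08, and of 743 ISs outside the windows 71.5% were, with a median of -0.07. Below that density 15 of 19 edge sites were below 0 (78.9%, 56.7 to 91.5%) with a median of -0.15, and of 29673 ISs outside the windows 48.0% were, with a median of 0.01. Within this lower range the edge sites were still denser, with a median of 5.06 log2 RPM in WT cells against 4.43. In the chromosome 9 array 12 of 13 sites were below 0, and the reads of all 13 summed to 2372 in WT and 2414 in Rif1KO cells, a log2 fold change of -0.13 ± 0.04 on the scale of the table. On chromosome 11, 10 of 12 were below 0, with a median of -0.05.

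In cells without RIF1, the hairpin to Mcm6 was compared with that to LacZ, and the sites next to centromeres had medians and shares close to those of other ISs. The median log2 fold change of Rif1KO_shMcm6 against Rif1KO_shLacZ was -0.02 (quartiles -0.20 and 0.17), against -0.01 for the rest of these chromosomes and -0.01 for all. Of the 3464 sites, 205 (5.92%, 5.18 to 6.75%) differed over 1.5-fold, with a background of 6.31%. Over 1.5-fold higher were 153 (4.42%, background 4.8%), and 52 were over 1.5-fold lower (1.5%, background 1.51%). Of the 765 sites called in Rif1KO_shMcm6 cells only, 116 (15.2%, 12.8 to 17.9%) were over 1.5-fold higher, against 17.0% of such ISs in the rest of these chromosomes. A call in that condition only favours higher values there, so these shares can be read only against each other. Among ISs called in both conditions 2.30% of the sites differed over 1.5-fold, against 2.05% of all ISs, and on log2(RPM + 1) 3.23% did, against 3.50%.

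Chromosome medians ranged from -0.12 on chromosome 2 to 0.11 on chromosome 3, and those of chromosomes 17 and 12 were -0.10 and 0.10. The medians of the rest of these chromosomes lay between -0.04 and 0.03. In 5 Mb stretches between 8 and 23 Mb of chromosomes 3, 4, 8 and 14 they lay between -0.13 and 0.06. In the window of chromosome 3, 23 of 353 sites were over 1.5-fold higher (6.52%, 4.38 to 9.59%), an interval that holds the background of 4.8%. In that of chromosome 17, 9 of 238 were over 1.5-fold lower (3.78%, 2.0 to 7.03%, background 1.51%) and 3 higher. Among 1 Mb bins, the third of chromosome 17 had 50 of 63 sites below 0 (median -0.25) and the third of chromosome 12 had 8 of 46 (median 0.21). The windows of chromosomes 1, 5 and 13, above 0 in Rif1KO against WT, had medians of -0.04, -0.08 and -0.03 here. Over the 15 chromosomes with sites in both tables, the medians of both contrasts had the same sign on 8 and opposite signs on 7. Among those with the same sign were 0.08 and 0.11 on chromosome 3 and -0.13 and -0.09 on chromosome 19.

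By the same rule on mean density, the highest fold change was 1.47 ± 0.10 at chr18:6081255-6082399 in an intron of Arhgap12, which encodes a GTPase-activating protein, from 3.60 log2 RPM in Rif1KO_shLacZ to 5.07 in Rif1KO_shMcm6 cells (255 and 791 reads). There 59.1% of stretches were unique, and an overlapping site of the first table had a fold change of -0.31 ± 0.20 in Rif1KO cells. At chr11:7494541-7495430, whose nearest TSS was that of Igfbp3, densities were 2.28 and 3.37 (1.09 ± 0.17).

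The lowest fold changes were at a promoter, in an intron and between genes. The Ccm2 promoter (chr11:6446552-6447438) of a vascular scaffold protein had 3.25 and 2.53 (-0.73 ± 0.16), and its counterpart in the first table had -0.51 ± 0.16 in Rif1KO cells. At chr18:6004739-6005323, between genes, densities were 3.37 and 2.60 (-0.77 ± 0.16). At chr8:3445192-3445805, in Arhgef18, they were 3.47 and 2.75 (-0.71 ± 0.15), and the same place had -0.17 ± 0.23 in Rif1KO against WT. That site is among the few in the sparse window of chromosome 8.

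At the promoters the median was -0.06 over 206 sites and -0.04 over those of the rest of these chromosomes. The 3 sites of Ap1b1 had fold changes from -0.44 to -0.12, those of Aebp1 from -0.33 to 0.06, those of Shisa7 from -0.39 to 0.06 and those of Tnni3, cardiac troponin I, from -0.41 to 0.09. The promoter IS of Zfp358 on chromosome 8 had 42 and 97 reads (1.04 on the log2 scale), and that of Rps20 on chromosome 4, a ribosomal protein gene, had -0.46. The edge sites had a median of -0.04 over 94, with 53 below 0. In the chromosome 9 array 4 of 7 were below 0, and the summed reads gave 0.07 ± 0.04.

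**Figure D5:**
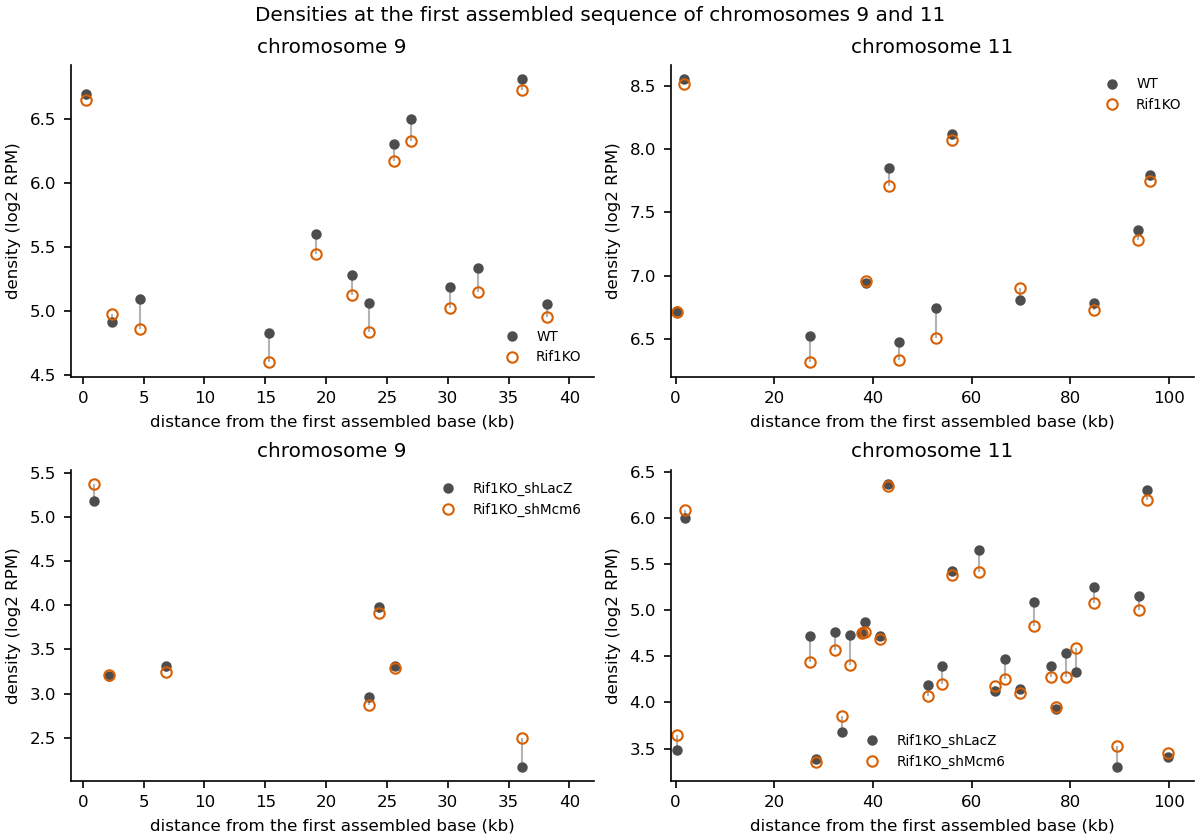
Density in log2 RPM of each site in the first 40 kb of chromosome 9 and the first 100 kb of chromosome 11 against distance from the first assembled base, in the control (filled) and the treated condition (open) of each table, joined by a line. In Rif1KO cells 12 of 13 sites of chromosome 9 and 10 of 12 of chromosome 11 lie below WT, and in Rif1KO_shMcm6 cells 4 of 7 and 20 of 28 lie below Rif1KO_shLacZ.

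The tables shared most of their sites from the side of the smaller one. Of the 998 sites, 795 (79.7%, 77.1 to 82.0%) overlapped an IS of the second table, against 84.2% of the other ISs of these chromosomes. In the other direction 780 of 3464 (22.5%) did, against 23.9%. At 757 places with a single partner each way, the fold changes of both contrasts, which share no library, had a rank correlation of 0.10, and at 24757 such places in the rest it was 0.12. Both were below 0 at 31.6% of the 757 places and above 0 at 18.4%, against 33.4 and 19.6% in the rest.

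In the separate IS lists the share of sites next to centromeres was alike in all conditions. It was 681 of 25828 in WT cells (2.64%, 2.45 to 2.84%), 857 of 33600 in Rif1KO (2.55%, 2.39 to 2.72%), 2724 of 100612 in Rif1KO_shLacZ (2.71%, 2.61 to 2.81%) and 3034 of 115766 in Rif1KO_shMcm6 cells (2.62%, 2.53 to 2.71%). Depth limits the smallest of these differences, since the median site had 75 WT and 83.5 Rif1KO reads, and 140 and 156.5 reads in the hairpin cells.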

How the data were processed

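SNS-seq libraries of 4 groups, 2 each, had been trimmed with Trim Galore 0.6.4 (cutadapt 2.6) and aligned to mm9 with Bowtie 1.2.3, keeping uniquely aligned 50-base reads. The authors called peaks with MACS per replicate without input, took the consensus of replicates with BedTools, kept peaks inside ClusterScan clusters and merged the lists of each pair of conditions. The deposited tables give log2 RPM per IS and condition, as the authors computed it with both libraries pooled, and each table was scaled on its own. The deposited fold change category and the peak numbers of the lists were not used. Linear values were whole multiples of 1 read for all ISs (tolerance 0.01 reads), which gave 3350255 WT, 3724571 Rif1KO, 21071351 Rif1KO_shLacZ and 23602750 Rif1KO_shMcm6 reads in ISs and the counting error of each fold change.

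ISs were placed by midpoint, against the GENCODE vM1 annotation of the same build, in Python 3.11.15 (pandas 2.3.3, numpy 2.4.6, scipy 1.17.1, pysam 0.24.0, numba 0.67.0, matplotlib 3.10.9), and the counts were checked on simulated data. With 1 pooled value per condition no test was made. Sites were called different over 1.5-fold. Named were the member nearest the end of each chromosome, given as a range, the 3 highest and 3 lowest fold changes among members whose 2 conditions averaged no less than the table's median density, the 3 densest in the control, and the genes with most promoter ISs on the 3 chromosomes with most and fewest members. Members and lists were chosen with earlier results of these data known. Alternatives were the fold threshold, the limit of the window, a pseudocount, a filter on low densities, ISs called in both conditions, the TSS distance and leaving out each chromosome. Counting per Mb of unique sequence, leaving out the first 0.2 Mb, leaving out ISs under 50% unique and leaving out chromosome 19 with the chromosome 9 array were chosen after seeing the data. A single site among the named sites is not reported here.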

Additional observations from a re-analysis of the deposited data

How the results depend on the processing

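No paired analysis was possible because both libraries of a condition were pooled into a single value, and no library could be left out for the same reason. Over 10 results and 58 other settings, 40 values lay inside the 95% interval of the reported value and 18 outside it. The share of sites that differed over 1.5-fold was 3.21% for Rif1KO against WT and 5.92% for Rif1KO_shMcm6 against Rif1KO_shLacZ. It was 0.20 and 1.10% at a threshold of 2-fold, 2.14 and 3.82% without the ISs of lowest density, 2.10 and 3.23% on log2(RPM + 1), and 0.371 and 2.30% among ISs called in both conditions. The ratio of ISs per Mb, 0.824 and 0.826, was 0.905 in the first table below 6 Mb and 0.922 and 0.924 per Mb of unique sequence. The share of promoter ISs, 9.92 and 5.95%, was 12.6 and 8.05% within 2 kb of a TSS, and below 6 and 10 Mb it was 7.22 and 4.91% in the second table. Without chromosome 19 and the chromosome 9 array it was 6.84 and 4.93%. The median fold change minus that of the rest, -0.01 in Rif1KO cells, was 0.03 (0.0256) with chromosomes 10, 15 and 16 added. The cause was not tested for any of these.

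With each chromosome left out in turn, the ratio of ISs per Mb ranged from 0.766 (without chromosome 3) to 0.920 (without 14) for Rif1KO against WT and from 0.797 (without 7) to 0.888 (without 14) for Rif1KO_shMcm6 against Rif1KO_shLacZ. The share of promoter ISs ranged from 7.87% (without 19) to 11.4% (without 3) and from 4.66% (without 7) to 6.46% (without 3), and the share over 1.5-fold from 2.58 to 3.47% and from 5.74 to 6.08%. The median fold change minus that of the rest ranged from -0.03 to 0.01 and from -0.03 (-0.029) to -0.01 (-0.0069), and the median control density minus that of the rest from 0.02 to 0.06 and from -0.03 (-0.0308) to 0.01 (0.0103). Depth limits single sites of the first table, where the chromosome 2 site with 58 and 114 reads had a counting SE of 0.23, against 0.58 for a difference of 1.5-fold on the log2 scale.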
